A study of Sus scrofa with 12 samples.

Results

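Interferon response and antigen processing genes were followed in primary pig arterial endothelial cells (ECs) under low, physiological and supra-high shear stress. The list names 39 genes by their symbols. A pig Ensembl identifier with that symbol was found for 35 of them among the 21153 genes of the table, and OAS1, IFIT3, XAF1 and B2M are not analysed here. Of the 35 measured genes, 33 were among the 11568 genes with enough counts to be tested, and the median log2 fold change quoted for the list is over these 33. IRF7, with 0 to 11 counts per library, and IRF9, with 1 to 9, lay below the filter.

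Interferons are antiviral cytokines that act through cell-surface receptors, JAK kinases and transcription factors that include STAT2 and IRF9, and they induce a common set of genes. These genes encode sensors of viral RNA, proteins that block viral replication, the ubiquitin-like protein ISG15 with its ligases, ADP-ribosyltransferases, and the immunoproteasome and peptide transporter that prepare peptides for MHC class I. ECs line the vessel wall, carry interferon receptors and express such genes at a low level without infection.

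The study exposed the ECs to laminar shear stress for 48 h, as a model of the flow in intracranial aneurysms. The 12 RNA-seq libraries came from 3 donor pigs, for which no genotype or strain is named, that gave 4 cultures each. There was 1 culture per donor at 2 dyne/cm2, 1 at 80 dyne/cm2 and a pair at the physiological 30 dyne/cm2. The 2 groups of 3 cultures at 30 dyne/cm2 are called set 1 and set 2. By the definition used here, 2 dyne/cm2 was compared with set 1 and 80 dyne/cm2 with set 2. The labels do not say which set served which comparison, so values against the other set are given as well. The cells are aortic by their labels and coronary by the methods, which give an age of 8 months for the pigs. The design text gives 1 flow slide model and seeding density for 2 dyne/cm2 and its controls and others for 80 dyne/cm2 and its controls, whereas the methods name a single model. All cultures shared a medium with fetal calf serum and heparin and a coating of 1% gelatin. Replicate numbers 1, 2 and 3 stand for the cell isolates PecA, PecC and PecD, and are called donors 1, 2 and 3. Triplets of values below are in that order. Each donor is 1 pig, so all statements rest on 3 animals. Neither the labels nor the methods name an interferon or a virus among the treatments.

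Levels are CPM, counts of a gene scaled to the counted reads of its library (counts per 1000000), and they are not corrected for gene length, so they are not compared between genes. A gene passed the test when its adjusted p was under 0.05 over all 11568 genes in edgeR's quasi-likelihood test on 12 libraries with condition and donor as terms. Log2 fold changes are given with their standard error (SE). A 2-fold change is named where it was reached as well, which gives both thresholds of the study. Total counts ran from 29606854 to 41058902 per library, and no pair of libraries was identical. Of 10 endothelial markers 8 were measured, with a summed level of 5029 to 6577 CPM at 2 dyne/cm2, 7873 to 8294 in set 1, 7097 to 7972 in set 2 and 8660 to 9134 at 80 dyne/cm2. PECAM1, KDR, TEK and ESAM of that list fell at 2 dyne/cm2, with log2 fold changes of -0.71, -1.31, -2.92 and -0.56. VWF and CLDN5 are not analysed here. Flow was also visible in KLF2, KLF4 and NOS3, genes that rise with laminar shear stress, which had log2 fold changes of -4.21, -2.57 and -1.86 at 2 dyne/cm2. At 80 dyne/cm2 none of the 3 passed the test, with 0.41 (adjusted p = 0.545), 0.30 (adjusted p = 0.51) and 0.73 (adjusted p = 0.0629). Of the markers of other cells, the leukocyte gene PTPRC reached at most 2 counts, CD3E at most 1 and the smooth muscle genes DES 0, CNN1 at most 5 and ACTA2 at most 17. Other markers had more, such as the leukocyte gene CD68 with 188 to 807 counts and the smooth muscle gene SMTN with 1401 to 3209.

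At 2 vs. 30 dyne/cm2, 24 of the 33 tested genes rose and 1, the ubiquitin ligase gene HERC6, fell. The share of all genes tested that meet the same criterion is given as the background. For these counts it was 20.2% that rose and 19.5% that fell. A change of at least 2-fold was reached by 14 genes that rose (background 5.84%) and by HERC6 (background 5.39%). The 14 genes were the RNA helicase genes DHX58 and DDX60, the effectors MX2, OAS2, IFIT1, IFIT2, CMPK2, IFI6, IFI44, GBP1 and GBP2, the ligase gene TRIM25, the ADP-ribosyltransferase gene PARP14 and the chemokine gene CXCL10. CXCL10 had enough counts to be tested only through its level at 2 dyne/cm2, so its place in these counts is not independent of the filter. The median log2 fold change of the 33 genes was 0.90, compared with -0.00 over all genes tested. Of the 33 values 31 were positive, compared with 5767 of 11568 over all genes tested. In 24 of the 33 the level was higher in all 3 donors (background 31.9%), but the 3 cultures at 2 dyne/cm2 lay above all 3 controls in only 6, namely STAT2, IFIT5, IFI44, GBP1, GBP2 and PARP12 (background 17.2%). The heat map of all 35 measured genes shows both the condition and the donor.

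**Figure D1:**
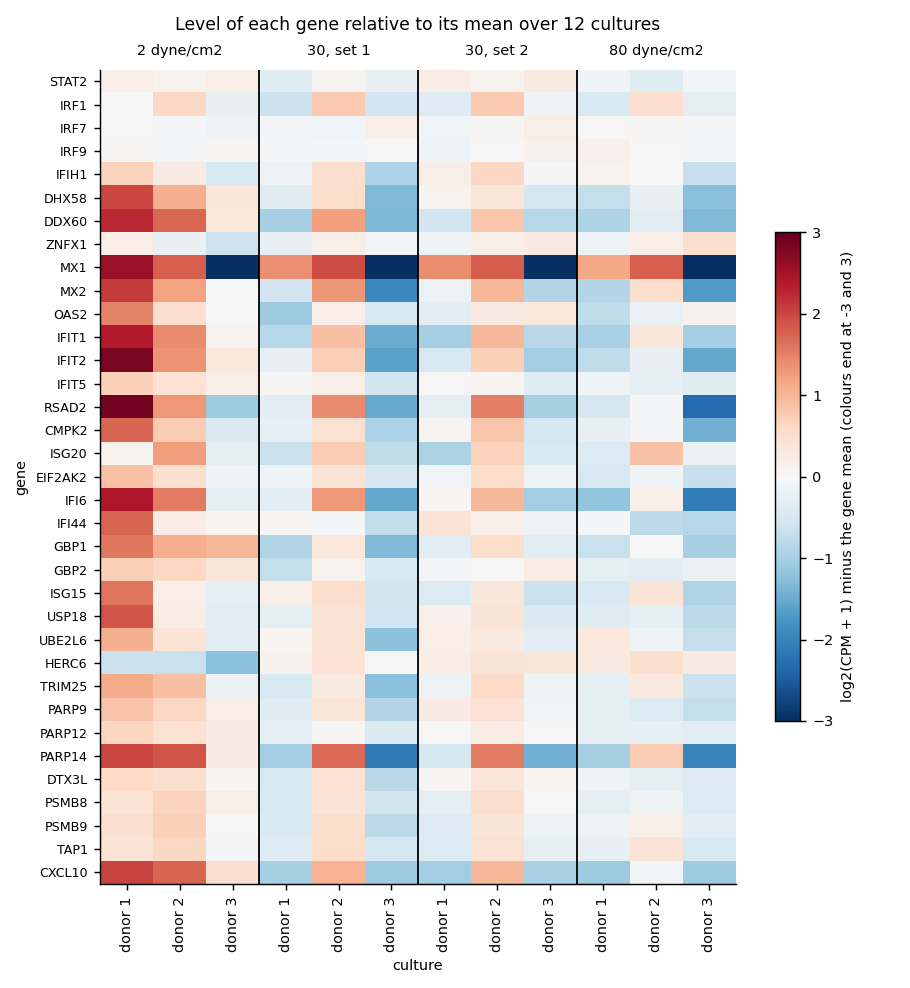
Colours give log2(CPM + 1) of each of 35 genes (rows) in each of 12 cultures (columns, grouped by shear stress in dyne/cm2) minus the mean of that gene, from -3 (blue) to 3 (red). Most rows are red in donor 1 at 2 dyne/cm2, the row of HERC6 is blue at 2 dyne/cm2, and the row of MX1 is blue in every culture of donor 3.

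The number of genes that rose depended on single cultures and on the donor term. It was 9 without the set 1 culture of donor 1 (background 14.5%), 13 without that of donor 3 (background 13.5%) and 15 without the 2 dyne/cm2 culture of donor 1 (background 16.7%). It was 3, GBP1, GBP2 and PARP12, in a fit without the donor term (background 7.88%), and 10 of 33 in a fit of the 6 compared libraries with the donor term (background 13.4%). With all cultures of donor 1 left out it was 6, DHX58, IFIT1, IFIT2, GBP1, TRIM25 and PARP12 (background 11.8%). With all of donor 3 left out it was 3, GBP1, TRIM25 and PARP12 (background 8.4%). HERC6 was lower past the test in each of these fits. Against set 2 in place of set 1, 12 of 33 rose (background 13.1%) and 18 were higher in all 3 donors (background 27.4%).

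Some markers of other cells moved with the conditions as well. The summed level of the 4 fibroblast markers was 6.08 to 65.7 CPM at 2 dyne/cm2, 3.13 to 20.3 in set 1, 2.04 to 16.2 in set 2 and 1.59 to 10.4 at 80 dyne/cm2. PDGFRA of that list rose at 2 dyne/cm2 and fell at 80 dyne/cm2, with log2 fold changes of 1.11 (adjusted p = 0.0106) and -1.46 (adjusted p = 0.0378). COL1A1 rose at 2 dyne/cm2, with 1.495 (adjusted p = 0.02), and was highest in donor 1 at 2 dyne/cm2, at 48.9 CPM. LUM, the other fibroblast marker tested, had -0.05 (adjusted p = 0.921), and DCN had 3 to 177 counts and was not tested. The summed level of the 7 leukocyte markers was 11.5 to 16.7 CPM at 2 dyne/cm2, 17.5 to 26.9 in set 1, 16.8 to 30.5 in set 2 and 17.8 to 32.3 at 80 dyne/cm2, with PTPRC and CD3E at or near 0. CD68 of that list fell at 2 dyne/cm2, with a log2 fold change of -1.18 (adjusted p = 0.00243). CD14 and CD79A, the others tested, had 0.15 (adjusted p = 0.758) and 0.26 (adjusted p = 0.219). Of the 6 smooth muscle markers 1, SMTN, was tested, and the summed level was 68.8 to 83.3 CPM at 2 dyne/cm2, 60.3 to 82.3 in set 1, 58.2 to 69.6 in set 2 and 43.7 to 71.8 at 80 dyne/cm2. The part of these cells in the results was not tested. In bulk RNA, a larger share of cells that express a gene and more RNA of it per cell cannot be told apart.

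Of the transcription factors, STAT2, part of the complex with IRF9 that type I interferons activate, had 31.7, 29.4 and 30.9 CPM at 2 dyne/cm2, 21.1, 28.8 and 23.3 CPM in set 1, 31.9, 29.5 and 33.1 CPM in set 2 and 24.7, 20.9 and 25.8 CPM at 80 dyne/cm2. The 3 cultures at 2 dyne/cm2 lay above those of set 1, with a log2 fold change of 0.34 ± 0.12 (SE, adjusted p = 0.0439). Against set 2 the STAT2 value was -0.003 (adjusted p = 0.987), so its change at 2 dyne/cm2 was not seen with the other control. IRF1, a factor induced by interferon-γ, had a log2 fold change of 0.30 (adjusted p = 0.13) and was highest in donor 2 in all 4 conditions, at 49.8 to 60.7 CPM against 21.8 to 34.8 CPM in donor 1. The call of STAT2 was lost in 9 of 12 fits that each left out 1 culture (adjusted p up to 0.185).

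Of the RNA sensors and helicases, DHX58 (ENSSSCG00000017416, chromosome 12, 20647698 to 20656691 in the RefSeq annotation of Sscrofa11.1, which gives the positions below too) encodes LGP2, a RIG-I-like receptor that lacks the signalling domains of its relatives. It had 22.5, 11.2 and 6.42 CPM at 2 dyne/cm2, 3.53, 7.39 and 1.33 CPM in set 1, 5.32, 6.59 and 3.1 CPM in set 2 and 2.57, 4.05 and 1.47 CPM at 80 dyne/cm2. The level at 2 dyne/cm2 was 6.36, 1.51 and 4.84 times that in set 1, but donor 2 in set 1 was above donor 3 at 2 dyne/cm2. The log2 fold change was 1.86 ± 0.37 (SE, adjusted p = 0.00398). DDX60 (ENSSSCG00000009720, chromosome 14, 21077491 to 21163563), a helicase gene induced by interferon, had 12.1, 8.07 and 2.42 CPM at 2 dyne/cm2, 0.39, 5.51 and 0.0884 CPM in set 1, 0.85, 3.87 and 0.522 CPM in set 2 and 0.443, 1.21 and 0.092 CPM at 80 dyne/cm2. Donor 2 held more DDX60 at 30 dyne/cm2 than donor 3 at 2 dyne/cm2, so the groups overlapped although each donor was higher at 2 dyne/cm2. Its log2 fold change was 2.89 ± 0.73 (SE, adjusted p = 0.012), from 16, 182 and 3 counts in set 1, and without the set 1 culture of donor 1 its adjusted p was 0.0577. IFIH1, which encodes the RNA sensor MDA5, had a log2 fold change of 0.40 (adjusted p = 0.163), and ZNFX1, an RNA helicase gene, had -0.11 (adjusted p = 0.719). The call of DHX58 held in all 12 fits that left out 1 culture. Against set 2, DHX58 had 1.43 (adjusted p = 0.0169) and DDX60 2.67 (adjusted p = 0.0209).

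Of the 14 antiviral effectors measured, 11 rose (background 20.2%) and none fell (background 19.5%). GBP1 and GBP2 encode interferon-induced GTPases that act on intracellular pathogens, and they lie 16969 bases apart on chromosome 4. GBP1 (ENSSSCG00000024973, chromosome 4, 127425699 to 127442132) had 31.4, 22.02 and 20.5 CPM at 2 dyne/cm2, 4.75, 12.4 and 3.33 CPM in set 1, 7.57, 14.9 and 7.59 CPM in set 2 and 5.76, 9.64 and 4.38 CPM at 80 dyne/cm2. The 3 cultures at 2 dyne/cm2 were above all others, at 6.61, 1.77 and 6.15 times set 1, and the log2 fold change was 2.09 ± 0.33 (SE, adjusted p = 0.00121). GBP2 (ENSSSCG00000006923, chromosome 4, 127387222 to 127408729) had 6.69, 6.18 and 5.04 CPM at 2 dyne/cm2, 1.88, 4.03 and 2.45 CPM in set 1, 3.62, 3.75 and 4.49 CPM in set 2 and 2.82, 2.78 and 3.06 CPM at 80 dyne/cm2. It was also above all 9 other cultures at 2 dyne/cm2, with a log2 fold change of 1.15 ± 0.24 (SE, adjusted p = 0.00459). Both calls held in all 12 fits that left out 1 culture. Against set 2, GBP1 had 1.47 (adjusted p = 0.00873), whereas GBP2 lost its call, with 0.63 (adjusted p = 0.0708). Without the cultures of donor 1 the adjusted p of GBP2 was 0.061.

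IFIT1, IFIT2 and IFIT5 belong to a family that binds viral RNA and limits its translation. IFIT1 (ENSSSCG00000010452, chromosome 14, 101237403 to 101249486) had 145, 74.6 and 29.5 CPM at 2 dyne/cm2, 14.6, 51.4 and 9.08 CPM in set 1, 13.1, 54.6 and 14.9 CPM in set 2 and 13.4, 34.9 and 12.9 CPM at 80 dyne/cm2. The level at 2 dyne/cm2 was 9.95, 1.45 and 3.25 times that in set 1, and donor 3 at 2 dyne/cm2 stayed below donor 2 at 30 dyne/cm2. The log2 fold change was 2.07 ± 0.54 (SE, adjusted p = 0.0143). IFIT2 (ENSSSCG00000010451, chromosome 14, 101193421 to 101204292) had 70.3, 24.5 and 11.5 CPM at 2 dyne/cm2, 7.48, 15.7 and 2.33 CPM in set 1, 6.2, 15.4 and 3.89 CPM in set 2 and 4.96, 7.48 and 2.48 CPM at 80 dyne/cm2. Its log2 fold change was 2.21 ± 0.49 (SE, adjusted p = 0.00673), and its groups overlapped in the same way, through donor 2. IFIT5 had a smaller log2 fold change of 0.57 ± 0.12 (SE, adjusted p = 0.00468), and its mean was 97.5 ± 17.1 CPM at 2 dyne/cm2 against 67.1 ± 17.4 CPM in set 1 (SD, n = 3 each), without overlap. IFIT1 and IFIT2 both overlap the gene LIPA in the RefSeq annotation, and reads of overlapping genes may not be separable, since the strand setting of the counting is not given in the sources used here. The call of IFIT1 was lost without the set 1 culture of donor 1 or of donor 3 (adjusted p up to 0.0712), and those of IFIT2 and IFIT5 held in all 12 such fits. All 3 calls held against set 2, with 1.86 (adjusted p = 0.0305) for IFIT1, 2.11 (adjusted p = 0.0119) for IFIT2 and 0.59 (adjusted p = 0.00557) for IFIT5.

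MX1 and MX2 encode dynamin-like GTPases that trap viral components, and the genes are neighbours on chromosome 13, 21436 bases apart. MX2 (ENSSSCG00000012076, chromosome 13, 204798633 to 204821612) had 119, 64.2 and 27.1 CPM at 2 dyne/cm2, 18.1, 69.5 and 6.46 CPM in set 1, 24.1, 55.2 and 14.4 CPM in set 2 and 14.3, 39.9 and 7.69 CPM at 80 dyne/cm2. The level was higher at 2 dyne/cm2 in donors 1 and 3 but not in donor 2, which was at 69.5 CPM in set 1 and 64.2 CPM at 2 dyne/cm2. The log2 fold change was 1.67 ± 0.48 (SE, adjusted p = 0.0221), and the call was lost in 4 of 12 fits that left out 1 culture, those without donor 1 or donor 3 at 2 dyne/cm2 or in set 1 (adjusted p up to 0.1). Against set 2 the value of MX2 was 1.37 (adjusted p = 0.0574). MX1 had 166, 95.4 and 1.86 CPM at 2 dyne/cm2, 71.1, 106 and 1.09 CPM in set 1, 71.7, 96.5 and 1.49 CPM in set 2 and 60.9, 95.95 and 1.72 CPM at 80 dyne/cm2. Its log2 fold change at 2 dyne/cm2 was 0.63 (adjusted p = 0.108). The level of MX1 differed far more between donors than between conditions. Donor 3 had 37 to 59 MX1 counts in its 4 libraries, whereas donors 1 and 2 had 2199 to 6489. The fitted log2 difference of donor 3 from donor 1 was -5.80 for MX1 and -1.34 for MX2.

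OAS2 (ENSSSCG00000009881, chromosome 14, 38827667 to 38847697) encodes a synthetase that makes the second messenger which activates RNase L, and it had 104, 51.6 and 36.1 CPM at 2 dyne/cm2, 16.7, 41.6 and 25.5 CPM in set 1, 28.2, 43.6 and 45.1 CPM in set 2 and 20.8, 31.4 and 39.9 CPM at 80 dyne/cm2. Only donor 1 stood well above its control, at 6.24 times set 1, whereas the ratio was 1.24 in donor 2 and 1.42 in donor 3. The log2 fold change of OAS2 was 1.29 ± 0.45 (SE, adjusted p = 0.0462), and the call was lost in 9 of 12 fits that left out 1 culture (adjusted p up to 0.189). CMPK2 (ENSSSCG00000008647, chromosome 3, 128903395 to 128917873), a mitochondrial nucleotide kinase gene, lies 5585 bases from RSAD2, which encodes viperin. CMPK2 had 38.3, 18.9 and 7.65 CPM at 2 dyne/cm2, 8.6, 15.2 and 5.1 CPM in set 1, 11.3, 19.9 and 7.07 CPM in set 2 and 9.02, 10.3 and 3.28 CPM at 80 dyne/cm2. All 3 donors were higher at 2 dyne/cm2, donor 1 the most, and the log2 fold change was 1.12 ± 0.33 (SE, adjusted p = 0.0245). Without the set 1 culture of donor 1 the adjusted p of CMPK2 was 0.117. RSAD2 had a log2 fold change of 1.52 ± 0.65 (SE, adjusted p = 0.0888), with ratios of 9.89, 0.922 and 1.42 in the 3 donors, so it did not pass the test. Against set 2 the calls of OAS2 and CMPK2 were lost, with 0.81 (adjusted p = 0.209) and 0.72 (adjusted p = 0.136).

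IFI6 (ENSSSCG00000034570, chromosome 6, 84852782 to 84858072) encodes a membrane protein that protects cells from flaviviruses, and it had 118, 65.4 and 17.2 CPM at 2 dyne/cm2, 17.1, 53.8 and 6.69 CPM in set 1, 22.4, 43.0 and 9.81 CPM in set 2 and 8.91, 24.2 and 4.2 CPM at 80 dyne/cm2. The donors' ratios at 2 dyne/cm2 were 6.93, 1.22 and 2.57, and the groups overlapped because donor 2 in set 1 was above donor 3 at 2 dyne/cm2. Its log2 fold change was 1.61 ± 0.43 (SE, adjusted p = 0.0158), and the call was lost without the set 1 culture of donor 1 or of donor 3 (adjusted p up to 0.0803). IFI44 (ENSSSCG00000003763, chromosome 6, 134634679 to 134649857), a gene named for its induction by interferon, had 36.5, 12.1 and 10.8 CPM at 2 dyne/cm2, 10.6, 9.94 and 5.78 CPM in set 1, 14.0, 11.7 and 8.92 CPM in set 2 and 9.97, 5.56 and 5.24 CPM at 80 dyne/cm2. The 3 cultures at 2 dyne/cm2 lay above set 1, with ratios of 3.46, 1.22 and 1.86 and a log2 fold change of 1.05 ± 0.25 (SE, adjusted p = 0.0101). Without the set 1 culture of donor 1 the adjusted p of IFI44 was 0.0561. ISG20, an exonuclease gene, rose by less than 2-fold, with a log2 fold change of 0.89 ± 0.26 (SE, adjusted p = 0.025), and its call was lost in 3 of 12 fits, those without the 2 dyne/cm2 culture of donor 1 or the set 1 culture of donor 1 or donor 3 (adjusted p up to 0.102). EIF2AK2, which encodes the RNA-activated kinase PKR, had 0.53 (adjusted p = 0.0522). Against set 2, IFI6 had 1.48 (adjusted p = 0.029) and ISG20 0.93 (adjusted p = 0.0278), while IFI44 lost its call, with 0.66 (adjusted p = 0.0795).

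Of the 5 ISG15 and ubiquitin genes, 2 rose (background 20.2%) and 1 fell (background 19.5%). TRIM25 (ENSSSCG00000017614, chromosome 12, 33184039 to 33212440), a ubiquitin ligase gene whose product acts on RIG-I, had 30.3, 26.2 and 11.6 CPM at 2 dyne/cm2, 9.35, 16.4 and 5.1 CPM in set 1, 11.9, 20.9 and 12.2 CPM in set 2 and 11.13, 16.9 and 8.21 CPM at 80 dyne/cm2. Each donor was higher at 2 dyne/cm2, at 3.24, 1.6 and 2.27 times set 1, and the log2 fold change was 1.22 ± 0.24 (SE, adjusted p = 0.00409). HERC6 (ENSSSCG00000021712, chromosome 8, 130594941 to 130665591) belongs to the same family of ligases as HERC5, the ISG15 ligase of human cells. HERC6 had 114, 111 and 75.1 CPM at 2 dyne/cm2, 194, 240.1 and 180.1 CPM in set 1, 208, 232 and 230.2 CPM in set 2 and 215, 249 and 212 CPM at 80 dyne/cm2. The 3 cultures at 2 dyne/cm2 lay below all 9 others, with ratios of 0.586, 0.462 and 0.417 and a log2 fold change of -1.03 ± 0.12 (SE, adjusted p = 0.000257), the smallest adjusted p of the 33 genes. The calls of TRIM25 and HERC6 held in all 12 fits that left out 1 culture. Against set 2 the call of HERC6 held, with -1.15 (adjusted p = 0.000223), and that of TRIM25 was lost, with 0.59 (adjusted p = 0.0998). TRIM25 also had an adjusted p of 0.119 without the donor term. UBE2L6, the conjugating enzyme of ISG15, had a log2 fold change of 0.66 ± 0.22 (SE, adjusted p = 0.0407) and lost its call in 8 of 12 fits that left out 1 culture (adjusted p up to 0.172) and against set 2, with 0.37 (adjusted p = 0.242). ISG15 itself had 0.64 (adjusted p = 0.208) and USP18, which removes ISG15 from its targets, had 1.04 (adjusted p = 0.0943). Both were higher in donors 1 and 3 and lower in donor 2, with ratios of 2.76, 0.789 and 1.23 for ISG15 and 5.49, 0.863 and 1.29 for USP18.

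All 4 genes of the PARP group rose (background 20.2%). PARP14 (ENSSSCG00000011874, chromosome 13, 137809499 to 137865383), a mono-ADP-ribosyltransferase gene, had 31.5, 28.8 and 8.53 CPM at 2 dyne/cm2, 2.9, 25.3 and 0.855 CPM in set 1, 4.63, 22.6 and 1.98 CPM in set 2 and 3.04, 12.8 and 1.01 CPM at 80 dyne/cm2. The ratios in the 3 donors were 10.9, 1.14 and 9.98, and donor 2 in both sets was above donor 3 at 2 dyne/cm2. The log2 fold change was 2.31 ± 0.55 (SE, adjusted p = 0.00935), with an adjusted p of 0.0506 without the set 1 culture of donor 1. PARP9 and DTX3L encode the subunits of an ADP-ribosyltransferase and ubiquitin ligase complex, and their annotated genes overlap by 395 bases on chromosome 13. PARP9 had 27.8, 23.4 and 17.1 CPM at 2 dyne/cm2, 11.3, 19.4 and 7.66 CPM in set 1, 17.7, 20.4 and 14.1 CPM in set 2 and 12.2, 11.06 and 8.74 CPM at 80 dyne/cm2, and its log2 fold change was 0.90 ± 0.19 (SE, adjusted p = 0.00524). DTX3L had 9.16, 8.34 and 6.04 CPM at 2 dyne/cm2, 3.8, 8.24 and 2.8 CPM in set 1, 5.84, 7.65 and 6.26 CPM in set 2 and 5.15, 4.52 and 4.14 CPM at 80 dyne/cm2, with a log2 fold change of 0.76 ± 0.26 (SE, adjusted p = 0.0436) that lost its call in 9 of 12 fits that left out 1 culture (adjusted p up to 0.173). PARP12, whose product moves to stress granules, had 40.7, 35.3 and 30.2 CPM at 2 dyne/cm2, 20.7, 26.2 and 18.5 CPM in set 1, 25.7, 29.8 and 25.7 CPM in set 2 and 20.8, 20.6 and 19.8 CPM at 80 dyne/cm2. Its 3 cultures at 2 dyne/cm2 lay above set 1, and its log2 fold change was 0.72 ± 0.11 (SE, adjusted p = 0.00106). The calls of PARP9 and PARP12 held in all 12 such fits. Against set 2, PARP12 had 0.42 (adjusted p = 0.02) and PARP14 1.99 (adjusted p = 0.0217), while the calls of PARP9 and DTX3L were lost, with 0.42 (adjusted p = 0.127) and 0.28 (adjusted p = 0.444). PARP9 had an adjusted p of 0.0804 without the donor term.

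All 3 antigen processing genes measured rose (background 20.2%), each by less than 2-fold. They lie side by side in the MHC region of chromosome 7, with 1105 bases between PSMB8 and TAP1 and 143 bases between TAP1 and PSMB9. PSMB8, a catalytic subunit of the immunoproteasome, had 19.0, 22.9 and 16.2 CPM at 2 dyne/cm2, 9.81, 18.8 and 9.37 CPM in set 1, 11.6, 20.7 and 14.2 CPM in set 2 and 11.3, 12.6 and 10.4 CPM at 80 dyne/cm2. PSMB9, another catalytic subunit, had 18.4, 21.9 and 13.1 CPM at 2 dyne/cm2, 9.11, 19.0 and 6.9 CPM in set 1, 9.71, 17.3 and 11.3 CPM in set 2 and 11.4, 14.6 and 10.2 CPM at 80 dyne/cm2. TAP1, a subunit of the peptide transporter of the endoplasmic reticulum, had 107, 124 and 76.5 CPM at 2 dyne/cm2, 61.0, 118 and 55.0 CPM in set 1, 60.5, 110.2 and 65.5 CPM in set 2 and 67.4, 105 and 56.9 CPM at 80 dyne/cm2. In each of the 3 genes every donor was higher at 2 dyne/cm2 than in set 1, and donor 2 changed least. The log2 fold changes were 0.68 ± 0.15 (SE, adjusted p = 0.00654) for PSMB8, 0.71 ± 0.18 (SE, adjusted p = 0.0135) for PSMB9 and 0.48 ± 0.13 (SE, adjusted p = 0.0188) for TAP1. The call of PSMB8 held in all 12 fits that left out 1 culture, while those of PSMB9 and TAP1 were lost in 3 and 4 of them (adjusted p up to 0.0595 and 0.0797). Against set 2 the call of TAP1 held, with 0.45 (adjusted p = 0.0311), and those of PSMB8 and PSMB9 were lost, with 0.38 (adjusted p = 0.0868) and 0.53 (adjusted p = 0.0567).

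CXCL10 (ENSSSCG00000032474, chromosome 8, 71693641 to 71695948) encodes an interferon-induced chemokine that attracts T cells. It had 7.56, 6.08 and 1.98 CPM at 2 dyne/cm2, 0.0487, 3.36 and 0 CPM in set 1, 0.0274, 3.22 and 0.0783 CPM in set 2 and 0, 0.976 and 0 CPM at 80 dyne/cm2. Donors 1 and 3 had 2 and 0 counts in set 1 and 296 and 63 at 2 dyne/cm2, whereas donor 2 had 111 and 180. The filter asked for 1 CPM in 3 libraries. Outside 2 dyne/cm2, CXCL10 reached 1 CPM only in donor 2 of set 1 and of set 2, so it was tested only because of its level at 2 dyne/cm2. The fitted log2 fold change of 4.12 ± 1.16 (SE, adjusted p = 0.0197) rests on these low counts and depends on the prior count of the fit. Its call was lost in 4 of 12 fits that left out 1 culture, those without donor 1 or donor 3 at 2 dyne/cm2 or in set 1 (adjusted p up to 0.0865). Against set 2 the value was 4.09 (adjusted p = 0.0269). CXCL10 overlaps ART3 in the RefSeq annotation.

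**Figure D2:**
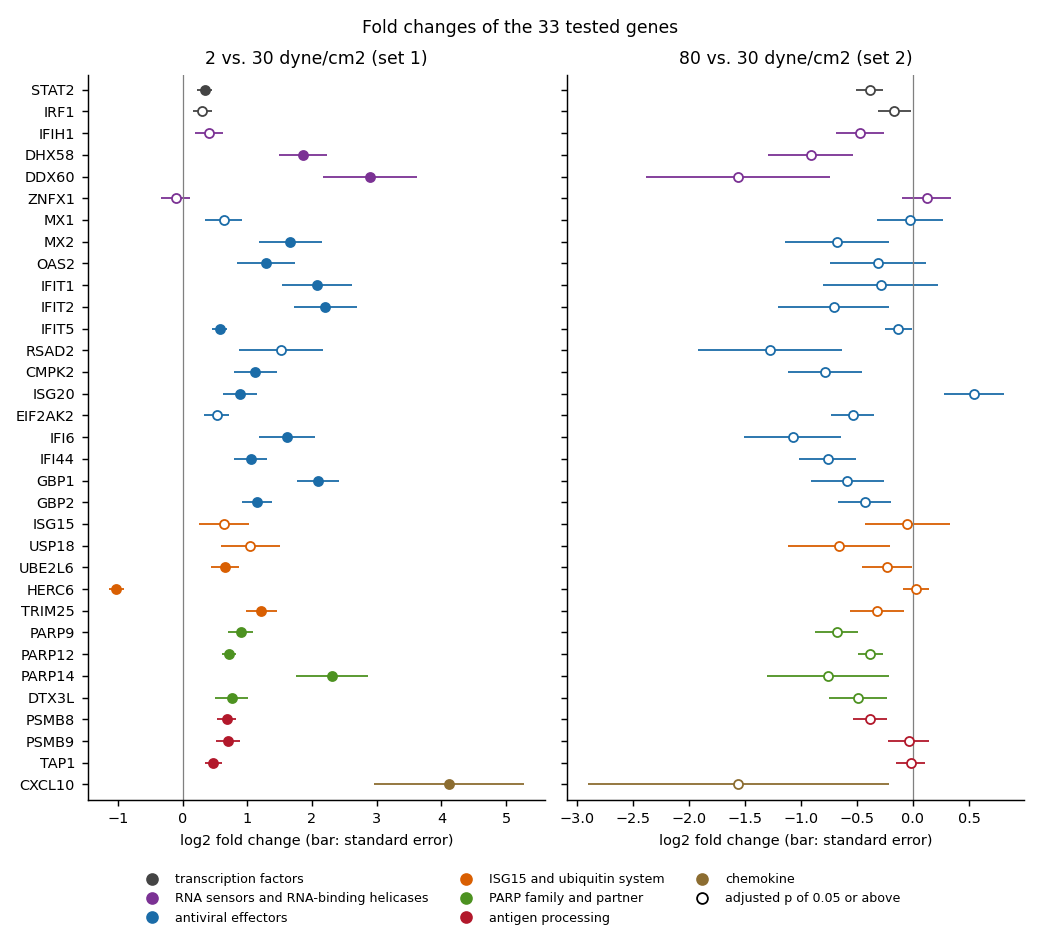
Points are the log2 fold changes of 33 genes at 2 vs. 30 dyne/cm2 with set 1 (left) and at 80 vs. 30 dyne/cm2 with set 2 (right), and bars are standard errors. Filled points passed the test, which holds for 25 genes on the left and none on the right, and colours give the role of each gene. The axes of the panels differ in range.

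The levels of GBP1, IFIT1, DDX60, PARP14 and CXCL10 in every culture show how the donors differed at 30 dyne/cm2, and those of HERC6 show a gene in which the groups were separate.

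**Figure D3:**
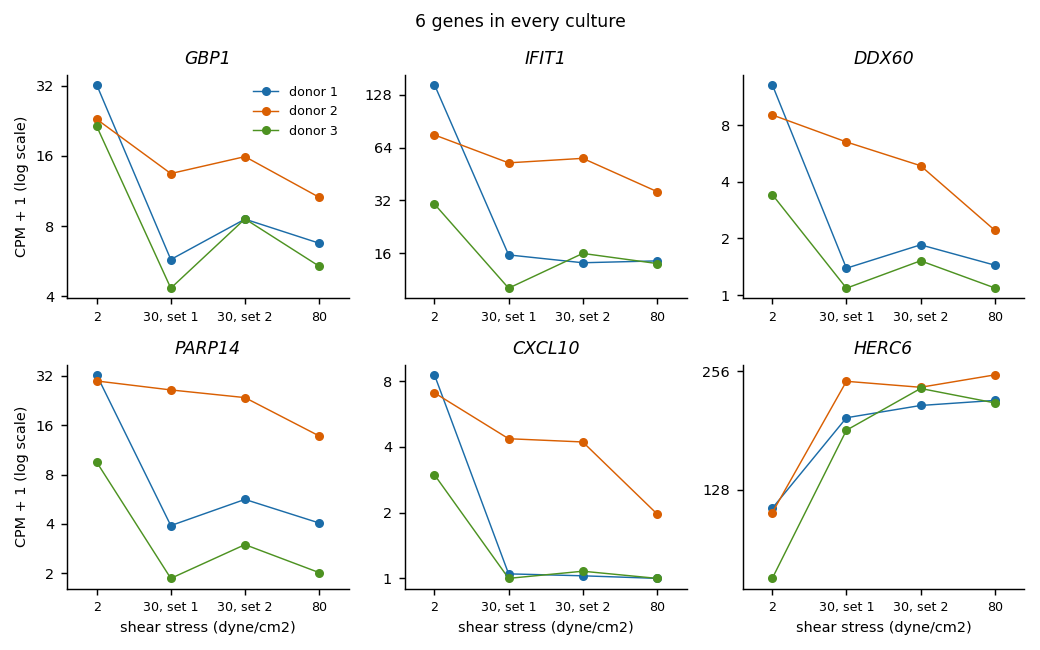
Each point is 1 culture, at its CPM + 1 on a log scale, by shear stress in dyne/cm2, and lines join the cultures of a donor. For GBP1 the 3 cultures at 2 dyne/cm2 are above all others and for HERC6 below all others, whereas for the remaining 4 genes donor 2 at 30 dyne/cm2 is above donor 3 at 2 dyne/cm2.

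The size of the change at 2 dyne/cm2 differed between donors. Over the 35 measured genes, the median within-donor difference of log2(CPM + 1) was 1.23 in donor 1, 0.19 in donor 2 and 0.73 in donor 3 (0.72 ± 0.52, SD, n = 3), while the medians over all genes tested were 0.00, 0.02 and -0.06. Donor 1 had the highest difference of the 3 donors in 32 of 33 tested genes (background 28.9%), and donor 2 the lowest in 30 (background 29.4%). Donor 2 also had the highest level of the 3 donors in set 2, which was not used for that difference, in 28 of 33 genes (background 37.7%). Both held in 26 of 33 genes (background 13.4%). With 3 donors, a relation between the level at 30 dyne/cm2 and the change could not be tested across donors.

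**Figure D4:**
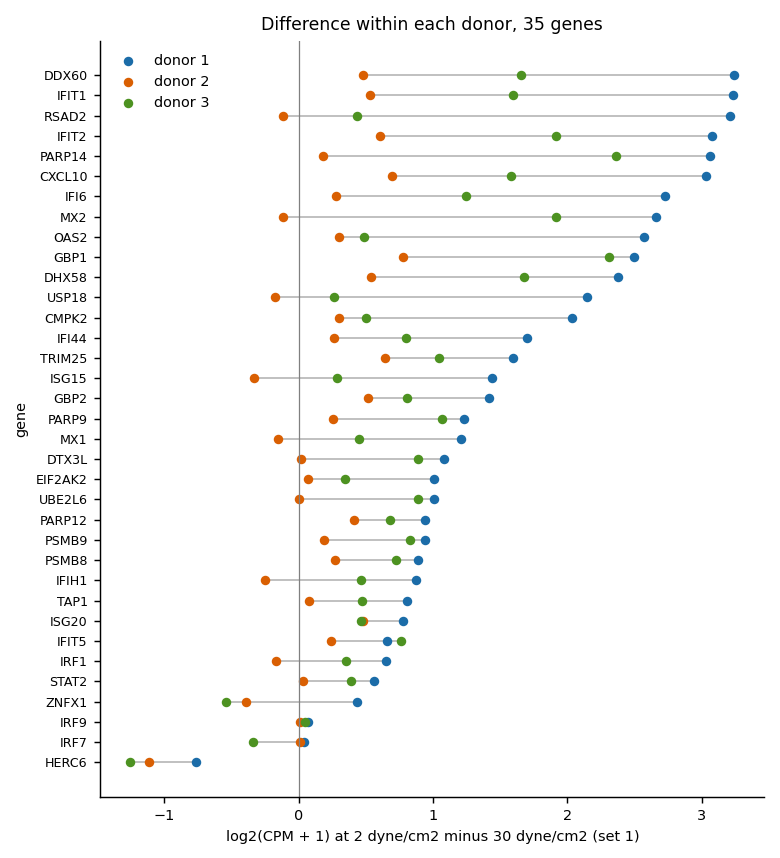
Each row is 1 of 35 genes and each point the difference in log2(CPM + 1) between 2 dyne/cm2 and set 1 in 1 donor, with a grey line from the lowest to the highest. Donor 1 is farthest to the right in most rows, with differences above 3 for DDX60, IFIT1, RSAD2, IFIT2, PARP14 and CXCL10, and donor 2 is near 0 in many.

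Across all conditions, 24 of 33 genes differed among the 3 donors (background 42.2%). In the variance of log2(CPM + 1) over the 12 cultures, the median share of the donor was 37.2% and that of the condition 42.9% over the 33 genes, compared with 30.0% and 39.6% over all genes tested. The donor share was larger than the condition share in 15 of 33 genes (45.5%, compared with 42.8% of all genes). It was 98.1% for MX1, 87.1% for IRF1 and 1.4% for STAT2. A donor is a single pig with its own cell isolate and passage, so genetic background, isolate and culture history cannot be told apart.

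At 80 vs. 30 dyne/cm2, no gene of the 33 passed the test in either direction, compared with 1.65% higher and 1.63% lower among all genes tested. By edgeR's unadjusted p, 9 genes had p under 0.05, all lower (background 12.2%). DESeq2 gave 1 gene, PARP9, lower at an adjusted p under 0.05. The share of all genes is not given for DESeq2, so this count cannot be set against a background. The smallest adjusted p was that of PARP9, with a log2 fold change of -0.68 ± 0.19 (SE, adjusted p = 0.0813). The median log2 fold change was -0.43, compared with -0.02 over all genes tested. Of the 33 values 30 were negative, compared with 6150 of 11568 over all genes tested. In 24 genes the level was lower in all 3 donors (background 27.3%), and in 5, STAT2, GBP2, PARP9, PARP12 and DTX3L, the 3 cultures at 80 dyne/cm2 lay below all 3 of set 2 (background 7.88%). ISG20 was the 1 gene higher in all 3 donors, with a log2 fold change of 0.54 (adjusted p = 0.253). Without the 2 dyne/cm2 culture of donor 1, which enters this fit through the shared spread and donor terms, 4 genes were lower past the test, CMPK2, EIF2AK2, IFI6 and IFI44 (background 1.68%). Without the set 1 culture of donor 2 there were 2, STAT2 and PARP9 (background 1.8%).

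The fit of the 6 compared libraries alone, with the donor term, estimates its spread from this comparison only and leaves 2 residual degrees of freedom. In that fit, which did not test DDX60 and CXCL10, 13 of 31 genes were lower at 80 dyne/cm2 (background 4.04%). They were STAT2, DHX58, MX2, IFIT2, RSAD2, CMPK2, EIF2AK2, IFI6, IFI44, GBP1, PARP9, PARP12 and PARP14. Their values included -1.08 (adjusted p = 0.00778) for IFI6, -1.12 (adjusted p = 0.0367) for RSAD2, -0.74 (adjusted p = 0.0181) for IFI44 and -0.38 (adjusted p = 0.0432) for STAT2. The estimates from the 12-library fit were -1.07 (adjusted p = 0.175), -1.28 (adjusted p = 0.261), -0.76 (adjusted p = 0.123) and -0.39 (adjusted p = 0.102) for the same genes.

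The direction at 80 dyne/cm2 also depended on the control set. The median within-donor difference over the 35 genes was -0.21, -0.51 and -0.41 against set 2 (-0.38 ± 0.15, SD, n = 3), with 0.06, -0.11 and -0.06 over all genes tested. Against set 1 it was 0.06, -0.49 and 0.14, and 6 of 33 genes were lower in all 3 donors (background 16.8%). No gene of the 33 was lower past the test against set 1 (background 0.389%). Donor 2 was thus lower at 80 dyne/cm2 than in either set, whereas donors 1 and 3 were lower than set 2 and slightly above set 1. STAT2 had a log2 fold change of -0.39 (adjusted p = 0.102) against set 2 and -0.04 (adjusted p = 0.879) against set 1. For PARP9 the values were -0.68 and -0.20 (adjusted p = 0.585 against set 1).

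Both sets were at 30 dyne/cm2, and their comparison shares libraries with those above. No gene of the 33 passed the test between set 2 and set 1, and 0.0% of all genes tested were higher in set 2 by that test. By the unadjusted p, 4 of the 33 genes were higher at p under 0.05 and none lower, and 1605 of the 11568 genes tested were past it in either direction. The median log2 fold change of set 2 against set 1 was 0.24 over the 33 genes and 0.00 over all genes. Of the 33 values 29 were positive, compared with 5800 of 11568 over all genes tested. The median within-donor difference over the 35 genes was 0.27, -0.03 and 0.49, and 13 of 33 genes were higher in set 2 in all 3 donors (background 25.3%). In donor 3 the level was higher in set 2 for 32 of 33 genes (background 58.9%), in donor 1 for 26 (background 51.3%) and in donor 2 for 14 (background 52.2%). STAT2 was the 1 gene whose groups did not overlap between the sets, and the share of all genes tested is not given for this count. The flow slide that the design text gives for the controls of each comparison, and any other handling in which the sets differed, cannot be told apart from the set itself.

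**Figure D5:**
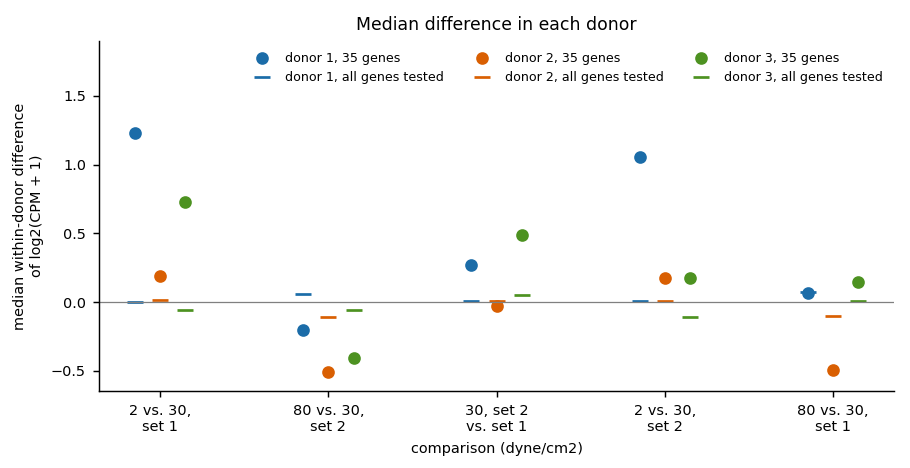
Dots are the median within-donor difference in log2(CPM + 1) over 35 genes and short bars that over all 11568 genes tested, per donor, for the comparisons of 2 and 80 dyne/cm2 with each set at 30 dyne/cm2 and of the sets with each other. The dots at 2 vs. 30 dyne/cm2 are above 0 in all 3 donors with either set, whereas those at 80 vs. 30 dyne/cm2 are all below 0 with set 2 only.

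The difference between the responses, the change at 2 minus the change at 80 dyne/cm2, each against its own set, was tested in the same fit. It was higher for 24 of 33 genes (background 19.3%) and lower for HERC6 (background 17.9%). The median was 1.54 on the log2 scale, compared with 0.01 over all genes tested. GBP1 differed by 2.68 ± 0.46 (SE, adjusted p = 0.00211), DDX60 by 4.45 ± 1.08 (SE, adjusted p = 0.0109), PARP14 by 3.07 ± 0.77 (SE, adjusted p = 0.0126) and PARP9 by 1.58 ± 0.27 (SE, adjusted p = 0.00194). Without the donor term the number higher was 5, STAT2, GBP1, GBP2, PARP9 and PARP12 (background 7.09%). Without the cultures of donor 1 it was 13 (background 9.98%), and without those of donor 3 it was 5, IFIT5, IFI44, GBP1, PARP9 and PARP12 (background 8.73%). The difference also takes in that of set 2 from set 1, whose median was 0.24 over the 33 genes. With the sets exchanged it was not tested. The separate log2 fold changes at 2 and 80 dyne/cm2 were then 1.47 and 0.04 for GBP1 and 2.67 and -1.335 for DDX60. They were 1.99 and -0.44 for PARP14 and 0.42 and -0.20 for PARP9.

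Other genes of the pathway were followed in lists that hold none of the 39. Their counts at 2 dyne/cm2 stand against the 20.2% of all genes tested that rose and the 19.5% that fell, with a median of -0.00. Of 12 ligand, receptor and JAK-STAT genes tested and reported, 2 rose and 2 fell at 2 dyne/cm2, with a median log2 fold change of 0.09. JAK1, a kinase bound to the receptors, had 0.28 (adjusted p = 0.0325), and JAK2, a kinase of the interferon-γ receptor, had -0.60 (adjusted p = 0.00237). The 3 interferon genes of this list were at or near 0 in all 12 libraries, with at most 4 counts for IFNB1, 1 for IFNK and 0 for IFNE, and other interferon genes are not analysed here. The receptor genes IFNAR1, IFNAR2, IFNGR1 and IFNGR2 were expressed, at 34.6 to 87.9 CPM over these genes and libraries, and none passed the test at 2 dyne/cm2. These lists had no gene past the test at 80 dyne/cm2 or between the sets.

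Of 15 nucleic acid sensing genes tested, 4 rose and 1 fell at 2 dyne/cm2. The viral RNA receptor gene RIGI had a log2 fold change of 1.503 (adjusted p = 0.0264), and the adaptor gene TICAM1 had -1.0 (adjusted p = 0.00123). The median of this list was 0.14. Among 15 further interferon-induced genes tested, 7 rose and 1 fell, with a median of 0.48, and they included LGALS3BP, a secreted glycoprotein gene, at 1.70 (adjusted p = 0.00821) and PLSCR1, a phospholipid scramblase gene, at 1.39 (adjusted p = 0.00548). TRIM26, a ubiquitin ligase gene of the MHC region, fell by 1.09 on the log2 scale (adjusted p = 0.000109).

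Of 12 MHC presentation genes tested, 3 rose and 5 fell at 2 dyne/cm2, with a median of 0.26, against the same background of 20.2% and 19.5%. ERAP1, the peptidase that trims peptides for MHC class I, had 0.85 (adjusted p = 0.00202), and TAP2, the partner of TAP1, had 0.30 (adjusted p = 0.0272). CALR, a chaperone gene of the loading complex, had -0.50 (adjusted p = 0.0148), and NLRC5, the transactivator of MHC class I genes, had -0.63 (adjusted p = 0.0286). Of the 4 constitutive proteasome genes tested 2 fell, PSMB7 at -0.30 (adjusted p = 0.00655) and PSMA1 at -0.36 (adjusted p = 0.00765) and none rose, and their difference from PSMB8 and PSMB9 was not tested.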

How the data were processed

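RNA was sequenced as single-end reads of 100 nt from 12 cultures. The authors deposited raw counts per gene. Per the labels and methods, reads were mapped to Sscrofa11.1 with STAR 2.4, reads with more than 1 location were discarded, and counts were taken over merged exons with featureCounts 1.4.6. Discarding such reads can lower the counts of genes with near-identical copies. The table holds no other normalization, and the strand setting is not given in the sources used here.

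Symbols were matched by pig Ensembl identifier. The filter kept genes that reached 1 CPM in 3 or more of 12 libraries, and these were tested in R 4.3.3 with edgeR 4.0.16 (TMM, quasi-likelihood test) with condition and donor as terms, which leaves 6 residual degrees of freedom, with Benjamini-Hochberg adjustment over all genes tested. The study's filter at 1 RPKM could not be applied because gene lengths were not used here. The biological coefficient of variation was 13.9%. The standard error is the size of the log2 fold change divided by the square root of F. Differences within donors are of log2(CPM + 1), with no test over the list. In the fit with condition and donor as terms, p-values rest on the spread between cultures that is left after both terms. All cultures came from 3 pigs.

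The replicate numbers mark cell isolates in the source names, and the methods compare cultures of the same donor and passage. After removal of group means, the 18 same-number pairs of libraries correlated at 0.672 to 0.876 over 11568 genes and the 36 other pairs at -0.552 to -0.189, so the donor term (replicate block) is part of the test.

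The members and all gene lists were chosen with earlier results of these data known. Every member is accounted for. Values in every culture are given for those past both thresholds in a comparison, and also for STAT2, MX1, PARP9, PARP12, DTX3L, PSMB8, PSMB9 and TAP1, which were chosen after their values were seen. Genes outside the list are named from the written lists, with at most 4 described above as past the test per list and comparison. They were not always those with the smallest p. At 2 dyne/cm2, further genes of those lists passed the edgeR test and are not described above. They include RNF135 (adjusted p = 0.0072) and TAPBPL (adjusted p = 0.00234). One gene of those lists is not reported here and was left out of their counts.

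Alternatives were relative log expression normalization, no filter, a minimum of 10 counts in all libraries, DESeq2 1.42.0, no donor term, 6 libraries, the other set at 30 dyne/cm2, a pseudocount of 0.5 and each library left out in turn. Leaving out all cultures of a donor was added once the data had been seen. The scripts were tested on simulated counts. Figures were drawn with matplotlib 3.10.9.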

Additional observations from a re-analysis of the deposited data

Results flagged for a closer look

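Responses at 2 and 80 dyne/cm2 differed by the test of the difference itself, made in the 12-library fit with donor as a term. The response at 2 dyne/cm2 was higher than that at 80 dyne/cm2 for 24 of 33 genes (background 19.3%) and lower for 1 (background 17.9%). On the log2 scale the difference was 2.77 ± 0.53 (SE, adjusted p = 0.00346) for DHX58, 4.45 ± 1.08 (SE, adjusted p = 0.0109) for DDX60, 2.34 ± 0.67 (SE, adjusted p = 0.0227) for MX2, 2.36 ± 0.74 (SE, adjusted p = 0.0322) for IFIT1 and 2.92 ± 0.69 (SE, adjusted p = 0.00972) for IFIT2. It was 1.91 ± 0.47 (SE, adjusted p = 0.0112) for CMPK2, 2.69 ± 0.61 (SE, adjusted p = 0.00814) for IFI6, 1.81 ± 0.36 (SE, adjusted p = 0.0041) for IFI44, 2.68 ± 0.46 (SE, adjusted p = 0.00211) for GBP1 and 1.58 ± 0.33 (SE, adjusted p = 0.00558) for GBP2. For TRIM25 it was 1.54 ± 0.34 (SE, adjusted p = 0.00732), for PARP14 3.07 ± 0.77 (SE, adjusted p = 0.0126), for CXCL10 5.68 ± 1.74 (SE, adjusted p = 0.0293) and for HERC6 -1.05 ± 0.17 (SE, adjusted p = 0.00136). The value of CXCL10 rests on libraries with 0 to 3 counts and depends on the prior count of the fit. This gene passed the filter only through its level at 2 dyne/cm2. With 3 cultures in a group, no group was tested for a culture far from the others.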

How the results depend on the processing

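At 2 vs. 30 dyne/cm2, 24 of 33 genes rose in the fit with donor as a term (replicate block). This number was 3 with no replicate block, 10 in the fit of 6 libraries with the replicate block, 12 against the other set at 30 dyne/cm2 and 14 when a 2-fold change was also required. It ran from 9 to 31 when 1 library was left out, and it was 6 without the cultures of donor 1 and 3 without those of donor 3. The number that fell ran from 1 to 2 when 1 library was left out. Relative log expression normalization, no filter, a minimum of 10 counts in all libraries and DESeq2 gave 22 to 27 genes that rose and 1 that fell. Among genes that passed the test at 2 dyne/cm2, STAT2 was the 1 whose direction turned, to -0.0034 against the other set (adjusted p = 0.987). IFIH1, which had not passed it, turned as well, from 0.40 to -0.05 (adjusted p = 0.879). At 80 vs. 30 dyne/cm2, 13 genes were lower in the fit of 6 libraries with the replicate block, 1 with DESeq2 and 0 to 4 when 1 library was left out, against 0 in the 12-library fit. The median within-donor difference at 80 dyne/cm2 was -0.10 against the other set, compared with -0.38. The response at 2 dyne/cm2 was higher than that at 80 dyne/cm2 for 5 genes with no replicate block, 13 without the cultures of donor 1, 5 without those of donor 3 and 16 to 30 when 1 library was left out, and lower for 1 to 2. The cause of these changes was not tested. Shares of all genes tested are given further above for fits that are named there with a background, and not for the other fits. No pairing other than the donors was tried. Counts of 0 to 3 in some libraries limit the fold changes of CXCL10 and DDX60.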
